A study of Mus musculus with 15 samples.

Results

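A set of 10 genes of endothelin, nitric oxide and natriuretic peptide signalling was followed in TRAP samples of the mouse kidney. The genes were chosen by name, for their place in these pathways, with earlier results of these data known, and every probe set annotated to one of them alone was read. Of these 10 genes, 9 had such a probe set: Edn1, Edn3, Ece1, Ednrb, Nos3, Gucy1a1, Gucy1b1, Npr1 and Npr3. They were read by 21 probe sets in all, among 18193 genes with a probe set, and all 9 were among the 16864 genes that passed the filter on dim genes. Ednra, the receptor that contracts smooth muscle, was not analysed here.

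TRAP pulls tagged ribosomes out of a tissue lysate with the mRNA they carry. The mice, of strain C57/129sv and of both sexes, were aged P14 to P300, and all of them, controls included, carried Tg:Col1a1-eGFPL10a, in which the collagen1α1 promoter and enhancer drive a ribosomal protein fused to a green fluorescent protein. Kidneys were taken after Sham surgery (day 0) or at day 2 or day 5 of UUO, unilateral ureteral obstruction, which blocks urine flow from 1 kidney and leads to fibrosis. Polysomal RNA was amplified in 1 round and hybridised to 15 one-colour arrays, 3 per group. The ribosome-bound fraction, labelled kidney pericytes, was measured on day 0 (arrays 1 to 3), day 2 (arrays 7 to 9) and day 5 (arrays 10 to 12). The unbound fraction, labelled kidney medulla, was measured on day 0 (arrays 4 to 6) and day 5 (arrays 13 to 15). For day 2, unbound RNA was not analysed here. The tag marks cells in which this promoter element is active, and the unbound fraction is the RNA that the pull-down left behind. Nothing in the labels ties the arrays of one group to different animals, or says whether bound and unbound arrays share lysates, in which case they would not be independent. The p-values thus measure a spread between arrays that may be technical, and having 3 of them in each group limits precision.

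Endothelins are short peptides that are cut from longer precursors by endothelin converting enzyme and act on receptors of neighbouring cells. Endothelin-1 constricts vessels through EDNRA, while EDNRB on endothelium clears the peptide and releases nitric oxide, and EDNRB on the collecting duct lowers salt uptake. Nitric oxide made by NOS3 binds soluble guanylate cyclase, a dimer of an alpha and a beta subunit, and the cyclic GMP it makes relaxes smooth muscle and pericytes. Natriuretic peptides raise cyclic GMP through NPR1, a receptor that is itself a cyclase, and are taken up and degraded through NPR3.

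The promoters of 4 genes are shown because the main results concern them: Edn1 and Npr1 moved in opposite directions after obstruction, and Gucy1a1 and Gucy1b1 encode the subunits of one enzyme and were both higher in the bound fraction of day 0. Each runs 5′ to 3′ on the gene's strand, from 250 bases before to 50 bases after the annotated start, from RefSeq (GRCm38.p6). Capitals mark the letters of a motif found on either strand.
Edn1, chr13:42301226-42301525, plus strand: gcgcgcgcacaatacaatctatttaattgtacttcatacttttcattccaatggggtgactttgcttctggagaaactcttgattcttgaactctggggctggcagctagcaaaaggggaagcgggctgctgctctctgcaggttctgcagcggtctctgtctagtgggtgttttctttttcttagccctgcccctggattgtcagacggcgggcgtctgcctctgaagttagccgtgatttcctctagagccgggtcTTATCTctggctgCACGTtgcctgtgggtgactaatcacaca
Gucy1a1, chr3:82145601-82145900, minus strand: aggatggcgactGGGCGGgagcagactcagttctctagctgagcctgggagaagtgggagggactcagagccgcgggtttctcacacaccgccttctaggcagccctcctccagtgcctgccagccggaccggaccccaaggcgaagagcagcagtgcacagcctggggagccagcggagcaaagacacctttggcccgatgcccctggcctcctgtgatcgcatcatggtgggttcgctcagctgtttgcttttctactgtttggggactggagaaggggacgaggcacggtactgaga
Gucy1b1, chr3:82074662-82074961, minus strand: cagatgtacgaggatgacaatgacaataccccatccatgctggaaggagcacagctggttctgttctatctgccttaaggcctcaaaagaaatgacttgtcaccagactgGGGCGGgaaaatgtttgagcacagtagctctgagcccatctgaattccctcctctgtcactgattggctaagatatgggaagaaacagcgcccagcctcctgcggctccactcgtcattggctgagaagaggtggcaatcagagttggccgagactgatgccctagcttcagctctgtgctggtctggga
Npr1, chr3:90465817-90466116, minus strand: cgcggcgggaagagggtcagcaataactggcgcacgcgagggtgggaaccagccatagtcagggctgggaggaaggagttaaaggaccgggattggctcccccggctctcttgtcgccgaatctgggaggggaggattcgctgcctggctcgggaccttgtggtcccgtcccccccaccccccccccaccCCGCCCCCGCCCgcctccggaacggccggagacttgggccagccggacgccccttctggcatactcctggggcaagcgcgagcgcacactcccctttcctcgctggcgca

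Both strands were searched for 6 motifs. A match to the TATA box is spelled TATAAA. The AP-1 site was searched with the letters TGANTCA, which any base at its centre satisfies. For the GATA site the letters were AGATAA. The core of the hypoxia response element was taken as ACGTG. A GC box is the run GGGCGG. The CArG box of smooth muscle genes was searched as CC, then 6 bases that are each A or T, then GG. In the Edn1 promoter the capitals are a GATA match starting 9 bases after the start and a hypoxia response element core starting 22 bases after it, both read on the minus strand relative to the gene. The Gucy1a1 and Gucy1b1 promoters shown each held 1 GC box, beginning at base -238 and base -140, and the Npr1 promoter held 2 adjoining ones on the opposite strand, at bases -60 and -54. A GC box stood in 35.7% of 32851 promoters of the same length, the hypoxia response element core in 19.6%, the GATA site in 11.2%, the TATA box in 13.6%, the AP-1 site in 7.81% and the CArG box in 1.63%. No TATA box, AP-1 site or CArG box lay in the 13 promoters of the 9 genes that had one in the table, Ednra among them. The table lists another Gucy1a1 promoter, at chr3:82145024-82145323, which is not printed and held no GC box but a hypoxia response element core starting 33 bases after its start. Gucy1a1 and Gucy1b1 are neighbours on chromosome 3, with 0 genes listed between them. These matches describe the letters of the windows and were not tested for binding.

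Levels are log2 values of the deposited intensity after normalization, and differences are log2 differences ± standard error. A gene was called where its adjusted p was under 0.05 in limma, with Benjamini-Hochberg adjustment over all 16864 genes. Within groups, array pairs had correlations of 0.918 to 0.973 across genes. On arrays 6, 9, 12 and 15 the mean of the hybridization controls was 12114 to 12905, while it was 4727 to 5864 on the 11 dimmer arrays, which include all of day 0 bound. The Gapdh 5′ to 3′ ratio, low where RNA is degraded, was 0.0269 on array 11 and at least 0.178 elsewhere. Col1a1, whose promoter drives the tag, was 5.38-fold higher in the bound than in the unbound fraction on day 0 (2.43 ± 0.19, adjusted p = 8.6e-05). The label of the bound fraction names pericytes, and its pericyte and smooth muscle markers were called higher than in the unbound fraction for 5 of 7 genes on day 0. The bound fraction of day 0 also held podocyte markers, with 5 of 5 called higher at a median difference of 5.55. Of the endothelial markers, 3 of 13 were called higher and 0 lower, at a median difference of 0.23 (range -1.14 to 2.52).

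In the bound against the unbound fraction of day 0, 3 of the 9 genes were called, all higher: Npr3, Gucy1b1 and Gucy1a1. Of all genes tested, 8.91% were called in that comparison and 4.81% were called higher. On day 5, Gucy1b1 was called higher and Edn1 lower in the bound fraction, 2 of 9 genes against 14.1% of all genes. In the bound fraction, Edn1 rose and Edn3 and Npr1 fell by day 2, 3 of 9 genes against 9.25% of all genes. The same 3 genes were called in the same directions by day 5, against 23.7% of all genes. These comparisons share the day 0 bound arrays. Between day 2 and day 5 of the bound fraction, 0 of 9 genes were called by limma, against 0.587% of all genes called. An unadjusted p under 0.05 was found for 0 of the 9 and for 2735 of all 16864 genes. No gene of the 9 had groups without overlap there, against 14.7% of all genes. In the unbound fraction, Edn1 and Gucy1a1 rose by day 5, 2 of 9 genes against 10.4% of all genes called and 6.43% called higher.

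**Figure D1:**
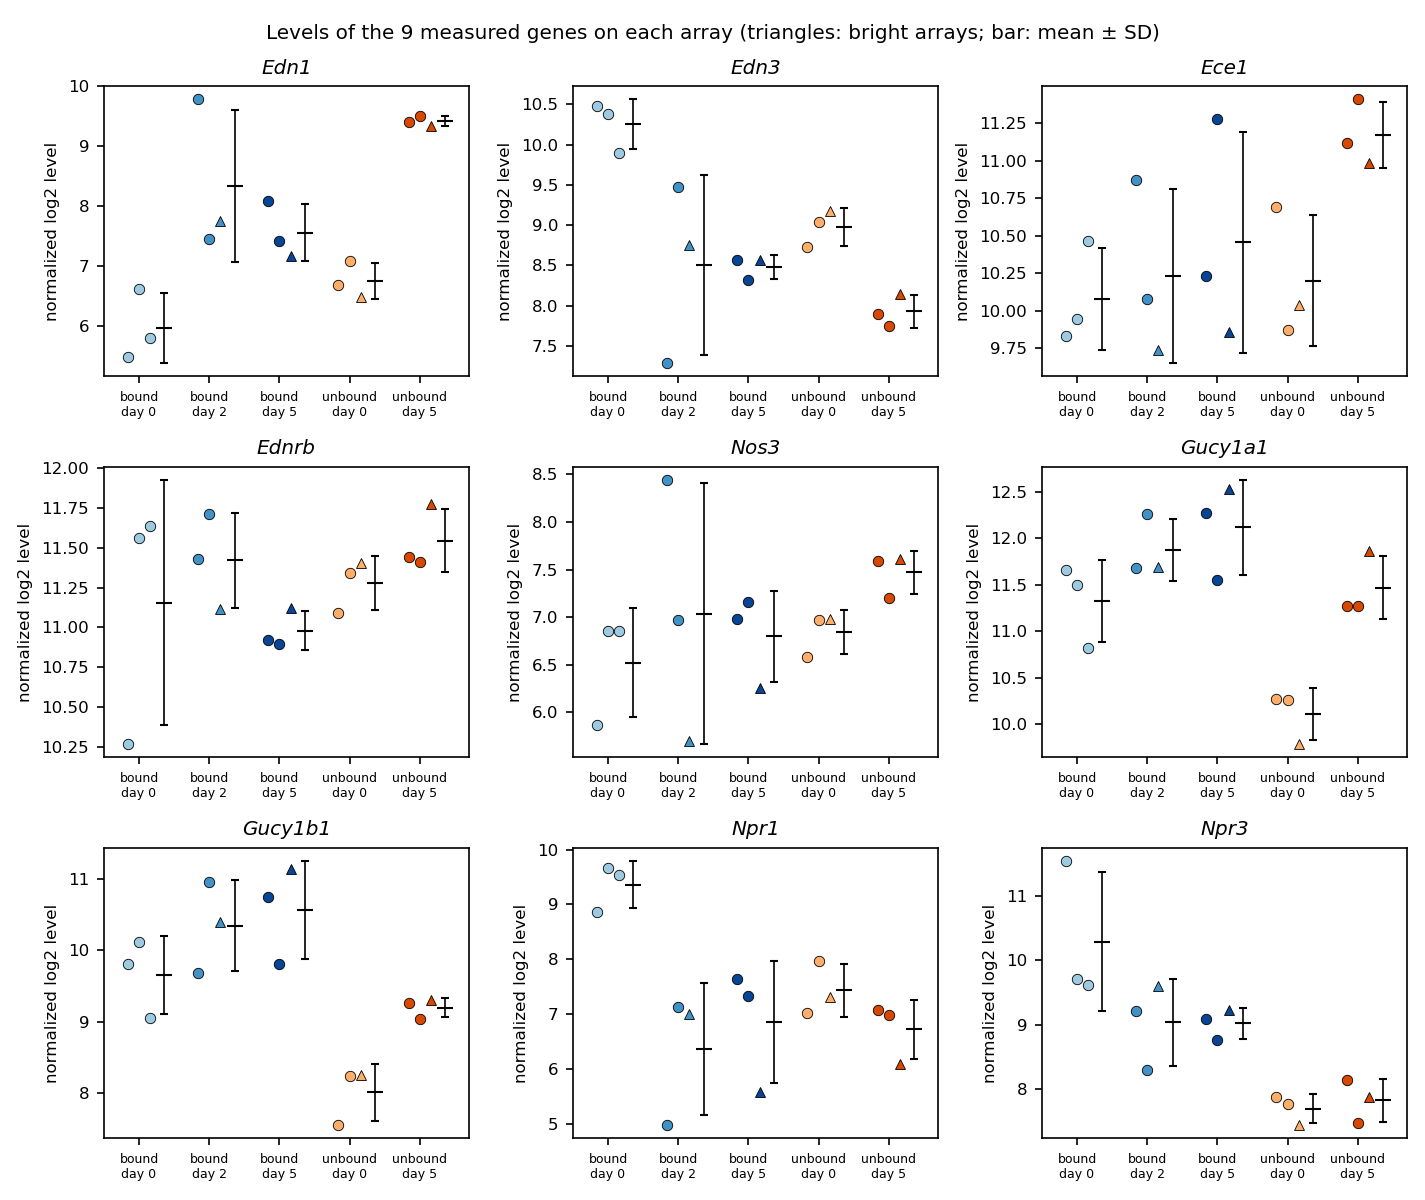
Normalized log2 level (vertical axis, its own range in each panel) of the 9 measured genes on each of the 15 arrays, by group. Circles and triangles are arrays, triangles are the 4 bright arrays, and the bar is the mean ± SD of 3 arrays; Edn1 is lowest on the day 0 arrays, while Npr1, Edn3 and Npr3 are highest in the bound fraction of day 0.

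The members' median difference was 1.22 in the bound against the unbound fraction of day 0, where the median of all genes was -0.13. It was 0.13 on day 5, with all genes at 0.03. For the bound fraction it was 0.27 at day 2 against day 0 and 0.28 at day 5 against day 0, with all genes at 0.00 and 0.12. For the unbound fraction it was 0.63, with all genes at 0.01. Groups did not overlap for 5 of 9 genes between bound and unbound on day 0 and for 6 of 9 on day 5, against 36.8% and 43% of all genes. In the bound fraction the groups did not overlap for 5 of 9 genes at day 2 and 4 of 9 at day 5 against day 0, where 21.5% and 40.4% of all genes did not. In the unbound fraction the day 5 and day 0 arrays did not overlap for 7 of 9 genes, against 45.9% of all genes.

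Most calls were lost without the 4 bright arrays, which leaves 11 arrays in the fit. Without them, limma called 0 of 9 genes in the bound against the unbound fraction of day 0 (5 with an unadjusted p under 0.05) and 0 on day 5 (1 unadjusted). It called 1 gene at day 2 against day 0 of the bound fraction, 0 at day 5 against day 0 (4 unadjusted) and 0 at day 5 against day 0 of the unbound fraction (2 unadjusted). Of all 16864 genes, the same setting called 313 on day 0 and 1 on day 5 for bound against unbound. At day 5 against day 0 it called 2117 in the bound fraction and 599 in the unbound fraction. The 13 called differences kept their signs without the bright arrays, at 0.738 to 1.12 times their reported log2 size. With log2 of the spiked controls as a covariate, all 13 calls remained. Bound fractions of day 2 and day 5 each hold 1 bright array and day 0 holds none.

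**Figure D2:**
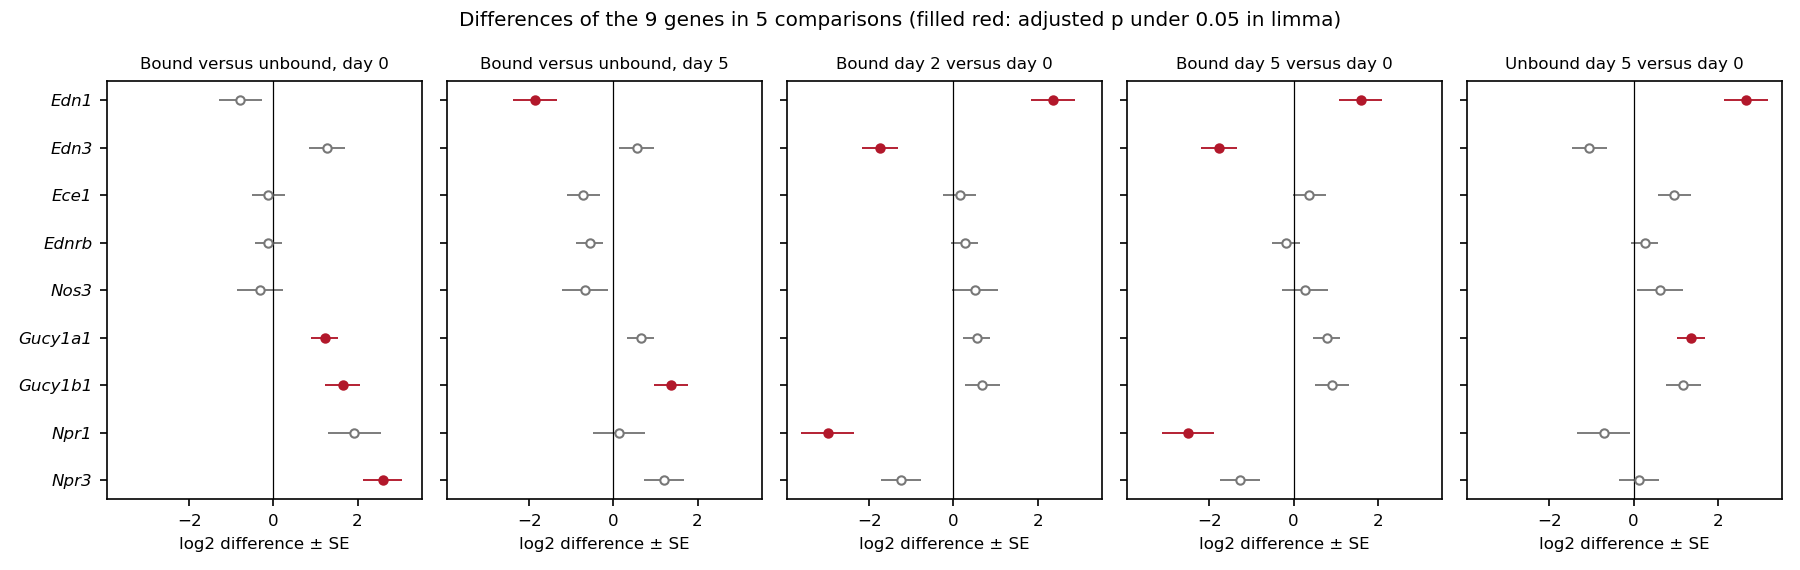
Log2 difference ± SE (horizontal axis) of the 9 genes in 5 comparisons, one panel each. Filled red points have an adjusted p under 0.05 in limma; Edn1 lies to the right and Edn3 and Npr1 to the left of 0 in the bound fraction at both days against day 0.

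Edn1, which encodes the precursor of endothelin-1, had 5.48, 6.61 and 5.79 in the bound fraction of day 0, 9.78, 7.45 and 7.75 on day 2, and 8.08, 7.42 and 7.16 on day 5. Every day 2 and day 5 array lay above every day 0 array, and array 7 was the highest of the bound arrays. The difference was 2.37 ± 0.52 at day 2 against day 0 (5.16-fold, adjusted p = 0.014) and 1.59 ± 0.52 at day 5 against day 0 (3.01-fold, adjusted p = 0.0427). Without array 7 the day 2 difference was 1.64 (adjusted p = 0.0111). The day 2 call was lost with only the groups compared in the fit (adjusted p = 0.187), with array weights (adjusted p = 0.0682) and without the bright arrays (adjusted p = 0.0715). The day 5 call was lost without any one of arrays 1, 3, 10, 11 or 12, where the adjusted p lay between 0.056 and 0.141. It was also lost with every probe set its own row (adjusted p = 0.0647), with only the groups compared in the fit and without the bright arrays.

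Unbound RNA had Edn1 levels of 9.41, 9.51 and 9.34 on day 5, against 6.68, 7.08 and 6.48 on day 0. All 3 day 5 arrays were higher than all 3 day 0 arrays, by 2.67 ± 0.52 (6.36-fold, adjusted p = 0.00671), and without the bright arrays the adjusted p was 0.0958. Of the 5 groups, the unbound fraction of day 5 had the highest mean Edn1 level, 9.42 ± 0.09 (SD, n = 3), although it overlapped with the bound fraction of day 2 at 8.33 ± 1.27. On day 5 Edn1 was lower in the bound fraction, at 7.55 ± 0.47, than in the unbound fraction (3.64-fold, -1.86 ± 0.52, adjusted p = 0.0341). That call was lost without any one of arrays 11 to 15, with adjusted p between 0.0777 and 0.102. It was also lost with every probe set its own row (adjusted p = 0.0538) and without the bright arrays. On day 0 the bound fraction averaged 5.96 ± 0.59 and the unbound 6.75 ± 0.31, a difference of -0.78 ± 0.52 (95% interval -1.91 to 0.34) that was not called. Collecting duct cells and endothelium are known sources of endothelin-1. Collecting duct markers fell in the unbound fraction for 4 of 6 genes by day 5, where 10.4% of all genes were called. Of the endothelial markers, 0 of 13 were called there (1 with an unadjusted p under 0.05). Macrophage markers rose there for 2 of 6 genes, and their summed level was 12.75 to 13.24 on day 5, against 11.75 to 12.20 on day 0. The part of these markers in the Edn1 result was not tested. In a bulk sample, fewer cells of a type and less RNA per cell cannot be told apart.

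Edn3, the precursor of endothelin-3, a peptide that acts mainly on EDNRB, changed in the opposite direction to Edn1 in the bound fraction. It had 10.48, 10.38 and 9.90 on day 0, 7.29, 9.47 and 8.75 on day 2, and 8.56, 8.32 and 8.57 on day 5. Each day 0 array lay above each later array, and array 7 was the lowest of the bound arrays. Edn3 fell by 1.75 ± 0.42 on the log2 scale at day 2 (3.36-fold lower, adjusted p = 0.0227) and by 1.77 ± 0.42 at day 5 (3.41-fold lower, adjusted p = 0.0111), each against day 0. The day 2 difference was -1.14 without array 7 (adjusted p = 0.0166), and its call was lost without array 1 (adjusted p = 0.0637), without array 2 (adjusted p = 0.0702), without the bright arrays (adjusted p = 0.128), with arrays centred on their medians (adjusted p = 0.0829), and with only the compared groups in the fit (adjusted p = 0.242). The day 5 call was lost only without the bright arrays among the alternatives tried (adjusted p = 0.0682).

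Against the unbound fraction, Edn3 in the bound fraction was 1.27 ± 0.42 higher on day 0 (2.42-fold, 95% interval 0.35 to 2.19), with no overlap between the groups, but the adjusted p was 0.0822. It was called there with only the groups compared in the fit (adjusted p = 0.0339) and with array weights (adjusted p = 0.00318). On day 5 the bound arrays again lay above the unbound arrays, which had 7.90, 7.74 and 8.15, a difference of 0.55 ± 0.42 that was not called (adjusted p = 0.41). Unbound day 5 arrays lay below the day 0 arrays, which had 8.73, 9.03 and 9.18 (-1.05 ± 0.42, adjusted p = 0.146). All 4 probe sets of Edn3 pointed the same way: the bound minus unbound difference of day 0 was 1.27 to 1.93, and the bound day 5 minus day 0 difference was -2.28 to -1.27. None was called over all probe sets in the first comparison. In the second only the brightest was called (adjusted p = 0.0195), and the others had adjusted p of 0.132, 0.0631 and 0.205.

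Ece1, the enzyme that cuts the endothelin precursors to their active form, was not called in any of the 7 comparisons. Its level in the bound fraction averaged 10.08 ± 0.34 on day 0, 10.23 ± 0.58 on day 2 and 10.46 ± 0.74 on day 5, with array 11 the highest at 11.28. The unbound fraction of day 5 averaged 11.17 ± 0.22, against 10.20 ± 0.44 on day 0, a difference of 0.97 ± 0.39 whose arrays did not overlap (adjusted p = 0.149). It was called with only those groups in the fit (adjusted p = 0.0429) and with array weights (adjusted p = 0.00771). One of its 3 probe sets was at or below the negative controls in every group.

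Ednrb, the receptor of endothelin-1 and endothelin-3, was also not called in any comparison. It averaged 11.16 ± 0.77 in the bound fraction of day 0, 11.42 ± 0.30 on day 2 and 10.98 ± 0.12 on day 5. Day 5 bound arrays, at 10.92, 10.90 and 11.12, lay below the unbound arrays, at 11.45, 11.41 and 11.77 (-0.57 ± 0.32, adjusted p = 0.26). The bound minus unbound difference of day 0 was -0.12 ± 0.32, with a 95% interval of -0.83 to 0.58, so the interval allows a difference of either sign. Its 3 probe sets disagreed in sign there, at 0.65, -0.34 and -0.12. They disagreed on day 5 too, where the brightest was at -0.57 and the others at 1.16 and -0.74, none of them called.

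Nos3, the nitric oxide synthase of endothelium, was not called in any comparison. Its bound levels were 5.87, 6.85 and 6.85 on day 0, 8.44, 6.97 and 5.70 on day 2, and 6.98, 7.16 and 6.26 on day 5. Array 7 was the highest and array 9, a bright array, the lowest of the whole series, so the day 2 spread covered the other groups. The bound day 5 minus day 0 difference was 0.28 ± 0.54, with a 95% interval of -0.90 to 1.46. On day 5 the bound arrays lay below the unbound arrays, at 7.59, 7.21 and 7.61 (-0.67 ± 0.54, adjusted p = 0.438). Endothelial markers stood beside this: in the bound fraction 6 of 13 fell by day 5 against day 0, where 23.7% of all genes were called. On day 5, where 14.1% of all genes were called between bound and unbound, 6 of 13 endothelial markers were lower and 1 higher in the bound fraction. Their summed level was 12.95 to 13.28 in day 5 bound and 13.53 to 13.74 in day 5 unbound, with none of the 13 at or below the negative controls, and their part in the Nos3 values was not tested.

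The subunits of soluble guanylate cyclase were both higher in the bound fraction of day 0. Gucy1a1, the alpha-1 subunit, had 11.66, 11.50 and 10.82 in the bound fraction, against 10.27, 10.26 and 9.78 in the unbound fraction. Gucy1b1, the beta-1 subunit that holds the haem group, had 9.81, 10.12 and 9.06 in the bound fraction, against 7.55, 8.23 and 8.26 in the unbound. For both genes every bound array was above every unbound array. The difference was 1.22 ± 0.32 for Gucy1a1 (2.33-fold, adjusted p = 0.0367) and 1.64 ± 0.41 for Gucy1b1 (3.13-fold, adjusted p = 0.0286). Both calls were lost without any one of arrays 1, 2, 4, 5 or 6, with adjusted p of 0.0798 to 0.124 for Gucy1a1 and 0.0606 to 0.12 for Gucy1b1, and with arrays centred on their medians (adjusted p = 0.148 and 0.128). Both were also lost with every probe set its own row (adjusted p = 0.065 and 0.0507) and without the bright arrays. The Gucy1a1 call was lost with only the groups compared in the fit, and the Gucy1b1 call with the mean of its probe sets.

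On day 5 Gucy1b1 was higher in the bound fraction, at 10.75, 9.81 and 11.14, against 9.26, 9.04 and 9.30 in the unbound fraction (1.37 ± 0.41, 2.58-fold, adjusted p = 0.0446). No array of the groups overlapped, and the call was lost without any one of arrays 10 and 12 to 15 (adjusted p = 0.0975 to 0.143). It was also lost with the mean of its probe sets (adjusted p = 0.0676), with every probe set its own row (adjusted p = 0.0722), with only the groups compared in the fit (adjusted p = 0.0504) and without the bright arrays (adjusted p = 0.286). Gucy1a1, read by its brightest probe set, had 12.28, 11.55 and 12.53 in the bound fraction of day 5. It had 11.27, 11.28 and 11.86 in the unbound fraction of day 5, where the groups overlapped (0.65 ± 0.32, adjusted p = 0.198). It was called there with arrays centred on their medians (1.32, adjusted p = 0.0483), with the mean of its probe sets (2.16, adjusted p = 0.0128) and with array weights (adjusted p = 0.0192). Gucy1a1 also rose in the unbound fraction by day 5, by 1.37 ± 0.32 (2.58-fold, adjusted p = 0.0187), with no overlap between the days. That call was lost without array 6 (adjusted p = 0.079) or array 15 (adjusted p = 0.0758), both bright, and with arrays centred on their medians (adjusted p = 0.213). Gucy1b1 in the unbound fraction was 1.18 ± 0.41 higher on day 5, also without overlap, at an adjusted p of 0.0897.

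In the bound fraction the means of both subunits were lowest on day 0 and highest on day 5, and these differences did not pass the test. Gucy1a1 averaged 11.33 ± 0.44, 11.88 ± 0.34 and 12.12 ± 0.51, and the day 5 minus day 0 difference was 0.79 ± 0.32 (95% interval 0.09 to 1.49, adjusted p = 0.0954). Gucy1b1 averaged 9.66 ± 0.54, 10.35 ± 0.64 and 10.57 ± 0.68, a difference of 0.91 ± 0.41 (95% interval 0.02 to 1.80, adjusted p = 0.128). Array 11, which had the low Gapdh ratio, was the lowest day 5 bound array for both, and without it the differences were 1.08 (adjusted p = 0.0398) and 1.28 (adjusted p = 0.0468).

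The 3 probe sets of Gucy1a1 gave different sizes. The probe set of middle brightness had 9.80, 9.29 and 7.99 in the bound fraction of day 0, against 6.07, 5.87 and 6.32 in the unbound fraction, a difference of 2.94 (adjusted p = 0.00653 over all probe sets). It had 10.99, 10.39 and 10.89 on day 5 bound, 1.73 above day 0 bound (adjusted p = 0.0306). The dimmest probe set had 9.65, 10.12 and 10.09 on day 5 bound, against 6.95, 7.87 and 4.75 on day 0 bound, a difference of 3.43 (adjusted p = 0.0103). The brightest probe set, which stands for the gene elsewhere, differed by 0.79 in that comparison, so the day 5 result of Gucy1a1 depends on the probe set read. Bound against unbound on day 5 also depended on it. There the probe set of middle brightness averaged 10.76 against 7.55 and was called higher (adjusted p = 0.00689 over all probe sets). The dimmest averaged 9.95 against 7.31 and was not called (adjusted p = 0.0506). The groups of both did not overlap, while those of the brightest did. On day 0 the bound minus unbound difference was above 0 for all 5 probe sets of Gucy1a1 and Gucy1b1, but only the Gucy1a1 one at 2.94 was called over all probe sets. The groups of the dimmest Gucy1a1 probe set (0.86) and of the dimmer Gucy1b1 probe set (1.19) overlapped.

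**Figure D3:**
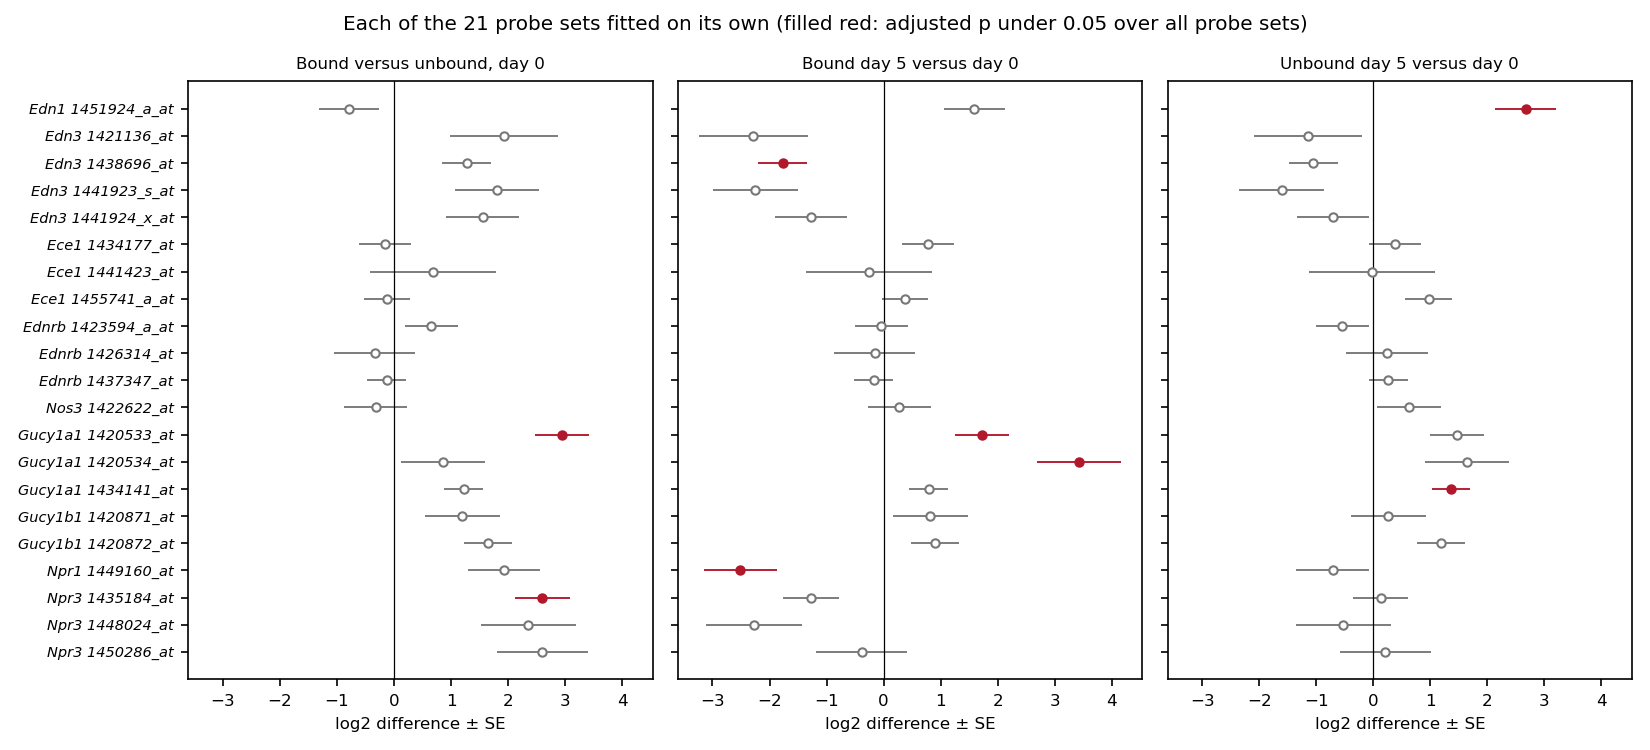
Log2 difference ± SE (horizontal axis) of the 21 probe sets of the 9 genes, each fitted on its own, in 3 comparisons. Filled red points have an adjusted p under 0.05 over all 39928 probe sets; the 3 probe sets of Gucy1a1 spread from 0.79 to 3.43 in the bound fraction at day 5 against day 0.

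Markers of the contractile cells that use this cyclase moved with the fraction. Pericyte and smooth muscle markers were higher in the bound fraction of day 0 for 5 of 7 genes, with a summed level of 13.79 to 14.62, against 12.23 to 12.72 in the unbound fraction, where Cnn1 was at or below the negative controls. On day 5, 4 of 7 were higher in the bound fraction, at 14.58 to 14.76, against 13.47 to 13.81 in the unbound fraction. Of all genes, 8.91% were called between bound and unbound on day 0, 14.1% on day 5, and 10.4% in the unbound fraction by day 5. Fibroblast markers were higher for 5 of 6 genes on day 0, and 4 of 6 rose in the unbound fraction by day 5, where Gucy1a1 rose. Their part in the cyclase results was not tested.

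Npr1, the cyclase receptor of atrial and brain natriuretic peptides, had the largest change over time of the 9 genes, each read by its brightest probe set. The dimmest probe set of Gucy1a1 changed by more, 3.43 in the bound fraction at day 5 against day 0. In the bound fraction Npr1 had 8.87, 9.67 and 9.53 on day 0, 4.98, 7.13 and 6.99 on day 2, and 7.64, 7.32 and 5.58 on day 5. Every day 0 array lay above every later bound array, and the day 2 and day 5 arrays overlapped. Npr1 fell by 2.99 ± 0.62 on the log2 scale at day 2 (7.95-fold lower, adjusted p = 0.0113) and by 2.51 ± 0.62 at day 5 (5.7-fold lower, adjusted p = 0.0138), each against day 0. Without array 7, its lowest array, the day 2 difference was -2.29 (adjusted p = 0.0189), and without array 12 the day 5 difference was -1.87 (adjusted p = 0.0494). Among the alternatives, the day 2 call was lost only with the compared groups alone in the fit (adjusted p = 0.0939) and the day 5 call only without the bright arrays (adjusted p = 0.0772).

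On day 0 the bound arrays of Npr1 also lay above the unbound arrays, which had 7.02, 7.97 and 7.31, by 1.92 ± 0.62 (3.8-fold, 95% interval 0.57 to 3.28), at an adjusted p of 0.076. It was called with only the groups compared in the fit (adjusted p = 0.0285), a trended and robust prior (adjusted p = 0.0445), array weights (adjusted p = 0.0106) and a pseudocount of 16 (adjusted p = 0.0302). On day 5 the bound and unbound fractions averaged 6.85 ± 1.11 and 6.72 ± 0.54 and overlapped (0.13 ± 0.62, adjusted p = 0.915). The change in the bound to unbound difference, day 5 minus day 0, was -1.80 ± 0.88 with a 95% interval of -3.72 to 0.12 (adjusted p = 0.379). In the unbound fraction the difference between days was -0.71 ± 0.62 (adjusted p = 0.542).

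Npr3, the clearance receptor, had the largest bound to unbound difference of day 0 among the 9 genes, each read by its brightest probe set. The Gucy1a1 probe set of middle brightness differed by more, 2.94. Npr3 had 11.54, 9.71 and 9.62 in the bound fraction, against 7.87, 7.77 and 7.44 in the unbound, a difference of 2.60 ± 0.47 (6.05-fold, adjusted p = 0.00676). All bound arrays lay above all unbound arrays, and array 1 stood above the other bound arrays. Without array 1 the difference was 1.97 (adjusted p = 0.0112), and the call was lost only without the bright arrays (adjusted p = 0.0738). On day 5 the bound arrays had 9.08, 8.75 and 9.22 and the unbound arrays 8.14, 7.47 and 7.87, a 2.29-fold difference without overlap that was not called (1.19 ± 0.47, adjusted p = 0.111). It was called with only the groups compared in the fit (adjusted p = 0.0258) and with array weights (adjusted p = 0.0119). In the bound fraction the day 2 arrays, at 9.22, 8.29 and 9.61, and the day 5 arrays all lay below the day 0 arrays, by -1.25 ± 0.47 (adjusted p = 0.122) and -1.27 ± 0.47 (adjusted p = 0.0699). Without array 1 these became -0.63 and -0.65. The other 2 probe sets of Npr3 were also highest on array 1, at 9.06 and 8.55. One differed between bound and unbound on day 0 by 2.35, and the other by at least 3.85-fold, since its unbound mean was at or below the negative controls. The groups of both overlapped, and neither was called.

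Podocytes express both natriuretic peptide receptors, and their markers moved with the fraction and the day. All 5 tested podocyte markers were called higher in the bound than in the unbound fraction on day 0, where 8.91% of all genes were called. By day 5 of the bound fraction, where 23.7% of all genes were called, all 5 podocyte markers fell. Their summed level in the bound fraction was 14.30 to 14.98 on day 0, 13.27 to 13.89 on day 2 and 12.11 to 13.41 on day 5. It was highest on array 1, which was also the highest array for Npr3. For Npr1, array 1 was the lowest of the day 0 bound arrays, at 8.87 against 9.67 and 9.53. At day 2 against day 0, 0 of 5 podocyte markers were called (4 with an unadjusted p under 0.05), at a median of -1.14. Of all genes, 9.25% were called there. For unbound RNA the summed podocyte level was 11.61 to 11.88 on day 0 and 11.95 to 11.96 on day 5, with Nphs1 at or below the negative controls on both days. Their part in the Npr1 and Npr3 results was not tested.

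**Figure D4:**
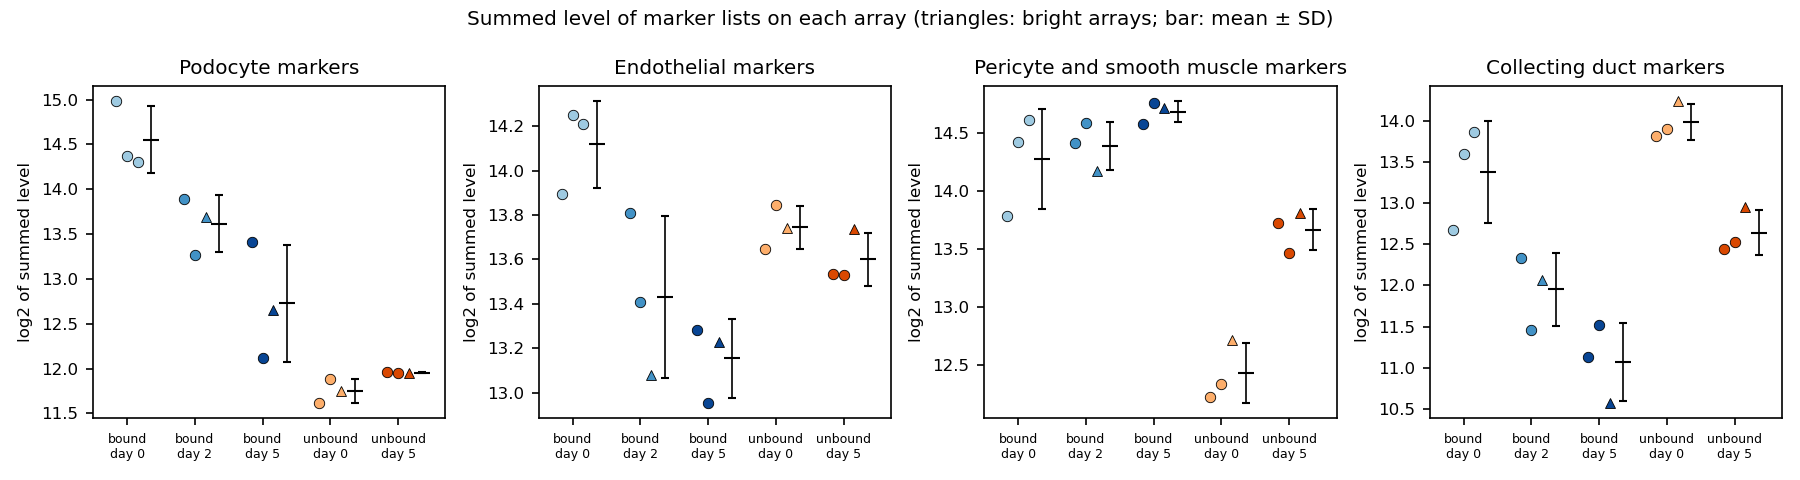
Log2 of the summed level (vertical axis, its own range in each panel) of podocyte, endothelial, pericyte and smooth muscle, and collecting duct markers on each of the 15 arrays, by group. Triangles are the 4 bright arrays and bars are the mean ± SD of 3 arrays; podocyte markers are highest in the bound fraction of day 0 and pericyte and smooth muscle markers are lowest in the unbound fraction of day 0.

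The change in the bound to unbound difference between day 5 and day 0 was called by limma for 0 of the 9 genes, against 0.0178% of all genes. An unadjusted p under 0.05 was found for 0 of the 9 and for 2395 of all 16864 genes. With the brightest probe set of each gene, all 9 estimates were below 0 (-1.80 for Npr1 to -0.28 for Gucy1b1), with a median of -0.59, against 0.09 for all genes. Some dimmer probe sets were above 0: Gucy1a1 at 0.26 and 1.78, Gucy1b1 at 0.56, 1 of Ednrb at 0.50 and 1 of Ece1 at 0.39. The other dimmer probe sets were below 0, and 0 of the 21 probe sets were called by limma. With arrays centred on their medians in place of quantile normalization the median of all genes was 0.53, and Ece1, Ednrb, Gucy1a1 and Gucy1b1 had estimates above 0.

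Among 33 further genes of the pathways, 31 were tested and Gucy1b2 and Irag1 were not analysed here. In the bound against the unbound fraction of day 0, 5 were called higher and 1 lower, with a median of -0.10. Of all genes, 8.91% were called there. Pde5a, the phosphodiesterase that is specific for cyclic GMP, had 10.72, 10.92 and 10.84 in the bound fraction, against 7.72, 7.93 and 8.43 in the unbound fraction (2.80 ± 0.31, 6.97-fold, adjusted p = 0.000436). Prkg1, the cyclic GMP-dependent protein kinase of smooth muscle, had 10.66, 10.04 and 9.34 in the bound fraction, against 7.57, 8.35 and 7.86 in the unbound fraction (2.08 ± 0.38, 4.23-fold, adjusted p = 0.00652). Both genes' groups did not overlap. Pde3a, a phosphodiesterase inhibited by cyclic GMP, was at least 6.15-fold higher, a bound because its unbound mean was at or below the highest negative control of the arrays. Vasp, a target of the kinase, was 2.60-fold higher and Gucy1a2, the alpha-2 subunit, 2.65-fold higher. Pde1b, outside the 5 largest and named after its values were seen, was 2.51-fold lower (-1.33 ± 0.27), a call lost without array 4 (adjusted p = 0.0573). The calls of Gucy1a2 and Vasp were lost with arrays centred on their medians (adjusted p = 0.0653 and 0.0722), and those of Gucy1a2 and Pde3a with the mean of all their probe sets (0.58 and 1.82).

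On day 5 the bound fraction had 4 of the 31 called higher and 4 called lower, with a median of 0.33, where 14.1% of all genes were called. Pde5a was again higher (1.84 ± 0.31, 3.58-fold), as was Pde3a, by at least 4.68-fold, a call lost with the mean of its probe sets (adjusted p = 0.14). Mme, the membrane enzyme that degrades natriuretic peptides and endothelin, was 6.85-fold lower (-2.78 ± 0.45, adjusted p = 0.00419), and Cav1, a caveolar protein that inhibits NOS3, 3.46-fold lower (-1.79 ± 0.36). Corin, the protease that activates atrial natriuretic peptide, was at least 3.65-fold lower, and the call was lost without any one of arrays 12 to 15 (adjusted p = 0.0783 to 0.0932). The other 3 calls, named after their values were seen, were Prkg1 (2.93-fold higher), Pde1b (2.29-fold higher) and Asl (1.80-fold lower). Prkg1 lost its call without any one of arrays 10 and 12 to 15, Pde1b without any one of arrays 12 to 14 and Asl without any one of arrays 10 to 15, with adjusted p up to 0.141.

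In the bound fraction, Nppc, the precursor of C-type natriuretic peptide, had 5.23, 2.59 and 3.77 on day 0, 5.27, 6.96 and 6.38 on day 2, and 6.31, 6.09 and 6.35 on day 5. Its day 0 mean was at or below the negative controls, and it rose by at least 3.30-fold at day 2 (adjusted p = 0.021) and at least 3.41-fold at day 5 (adjusted p = 0.00985). Its day 5 difference was 2.39 over all arrays, 3.07 without array 1 and 1.75 without array 2. The day 2 difference was 2.34 over all arrays, 3.02 without array 1 and 1.70 without array 2. The day 2 call, the only one of the 31 there against 9.25% of all genes, was lost without any one of arrays 2, 3, 8 or 9 (adjusted p = 0.0633 to 0.0688). At day 5 against day 0, 4 of the 31 were called higher and 2 lower, against 23.7% of all genes called, with a median of 0.09. Prkg2, another cyclic GMP-dependent protein kinase, had 8.57, 9.34 and 7.99 on day 5, against 6.26, 3.73 and 3.42 on day 0 (4.17 ± 0.78, adjusted p = 0.00304). Its values on day 0 arrays 2 and 3 lay below those arrays' negative controls, so no exact fold is given, and without array 1 the difference was 5.06. Pde1b was 4.69-fold higher, at 8.07, 8.63 and 8.76 on day 5, against 5.87, 6.37 and 6.53 on day 0 (adjusted p = 0.000207). Ddah2, which removes an inhibitor of nitric oxide synthases, was 3.47-fold higher, a call lost without array 3 (adjusted p = 0.053). Corin had 4.39, 3.95 and 1.38 on day 5, against 7.36, 8.71 and 9.61 on day 0, at least 16.5-fold lower (adjusted p = 0.00108), with log2 differences of -5.32 over all arrays, -5.92 without array 1 and -4.39 without array 12. Mme, named after its values were seen, was 3.25-fold lower, a call lost without array 3 (adjusted p = 0.0734) or array 12 (adjusted p = 0.0682). Between day 5 and day 2 of the bound fraction only Pde1b of the 31 was called (3.74-fold higher, adjusted p = 0.0102), where 0.587% of all genes were.

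**Figure D5:**
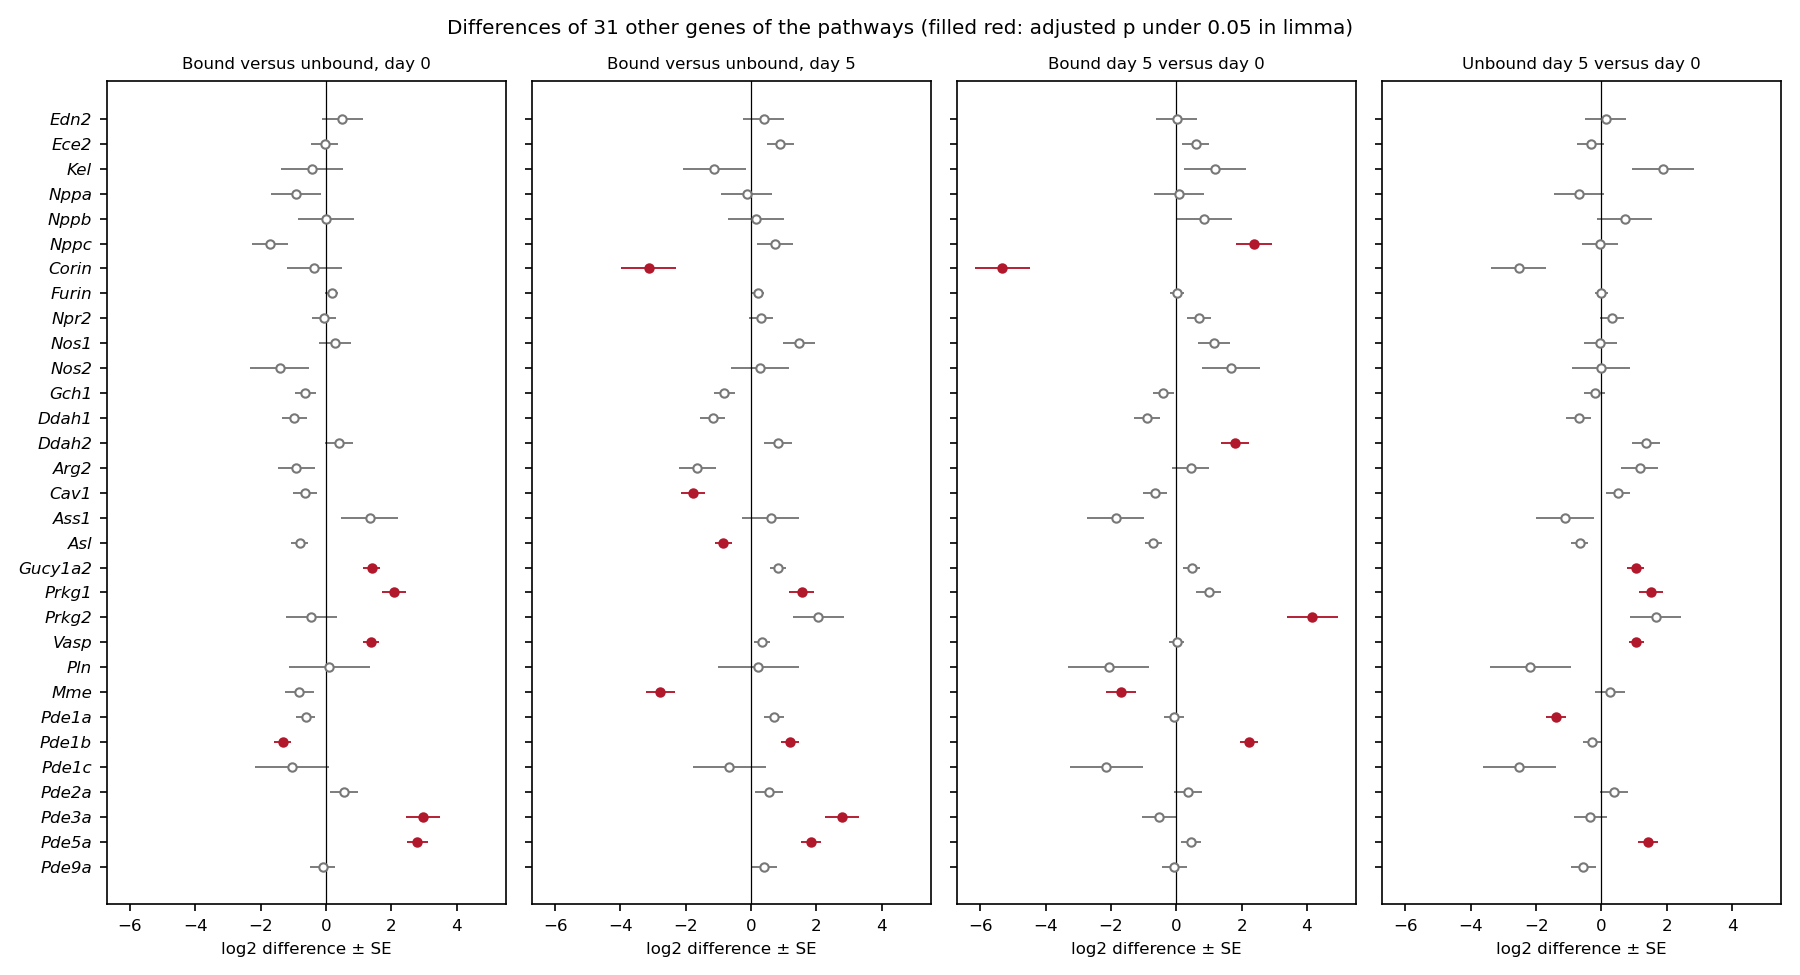
Log2 difference ± SE (horizontal axis) of the 31 further pathway genes (rows) in 4 comparisons. Filled red points have an adjusted p under 0.05 in limma; Pde5a, Pde3a and Prkg1 are called higher in the bound than in the unbound fraction in both panels, and Corin is the lowest gene in the bound fraction at day 5 against day 0.

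In the unbound fraction, 4 of the 31 rose by day 5 and 1 fell, against 10.4% of all genes called, with a median of -0.01. Prkg1 (2.86-fold), Pde5a (2.67-fold), Vasp (2.09-fold) and Gucy1a2 (2.07-fold) rose and Pde1a, a calmodulin-dependent phosphodiesterase, was 2.62-fold lower. Each of the 5 calls was lost without one or more single arrays: Prkg1 without arrays 4, 6, 13, 14 or 15, Pde5a without arrays 4 or 13, Vasp without arrays 4, 6 or 13, Gucy1a2 without arrays 4, 5, 13 or 15, and Pde1a without arrays 5 or 13, with adjusted p of 0.0526 to 0.101. With the mean of all its probe sets, Gucy1a2 differed by -0.22, opposite in sign. Of the named pathway calls in the 6 comparisons, those of Pde3a and Pde5a on day 0 and of Corin, Prkg2 and Pde1b at day 5 of the bound fraction were kept without the bright arrays, and the others were lost. The change in the bound to unbound difference was called by limma for 0 of the 31, with 9 at an unadjusted p under 0.05. Of all 16864 genes, 3 were called there and 2395 had an unadjusted p under 0.05.

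The genes whose pattern over the 15 arrays was most like each of the 9 were found by root-mean-square distance after centring. For Edn1 they were Aoc1 (0.372 log2 units) and Lat2 (0.459), where the spread of Edn1 itself was 1.32. Edn3 was nearest H3c4 (0.31) and Cxcl12 (0.367), and Npr3 was nearest Coro2b (0.332) and Tspan2 (0.424). Gucy1a1 was nearest Rsu1 (0.24) and Dtx4 (0.272), and Gucy1b1 was nearest Fam114a1 (0.277) and Tpm2 (0.313). Npr1 was nearest Vstm2b (0.598) and Eya4 (0.673), where its own spread was 1.26. Ece1 was nearest Ctc1 (0.355) and Fbxo38 (0.357), Ednrb nearest Lifr (0.229) and Mcmbp (0.25), and Nos3 nearest Magi1 (0.301) and Dop1b (0.365). These distances describe 15 arrays that share groups and are given without a test.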

How the data were processed

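Polysomal RNA of 15 mouse kidney samples was measured on one-colour arrays. The authors deposited linear intensity values per probe set. How probes were summarised and scaled is not given in the sources used here. Of 45037 probe sets without the 64 controls, 34945 were annotated to 1 gene, 932 to several and 9160 to none. Intensities were taken as log2(intensity + 1) and quantile normalized between arrays. Where a gene had several probe sets the one with the highest mean stood for it. Genes were kept if 3 or more arrays had them above that array's 25th percentile. Groups were compared with limma 3.58.1 in R 4.3.3, with 1 fit over all 15 arrays, Benjamini-Hochberg adjustment over 16864 genes and a threshold of 0.05. A group mean at or below the highest of 27 negative-control probe sets gives only a bound. The script was tested on simulated data. Figures were drawn with matplotlib 3.10.9.

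The 10 genes, the pathway and marker lists and the processing were chosen with earlier results of these data known. Named were all 10 genes, the called pathway genes up to 5 per comparison by size of difference, and the 2 genes nearest in pattern to each. Alternatives were median centring, averaged or single probe sets, other filters and pseudocount, only the groups compared, a trended and robust prior, array weights, brightness as a covariate, and leaving out each array or the bright arrays.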

Additional observations from a re-analysis of the deposited data

How the results depend on the processing

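Over the 54 differences of single genes of the set, 972 alternatives were computed. Of the 13 calls, 60 alternatives ended one and 28 gave a call elsewhere, and 32 turned a sign, none of them of a call (0). No paired analysis was possible because the sample titles number the arrays 1 to 15 and no number is shared between groups, and the labels do not say whether bound and unbound arrays share lysates. Counts below are of the 9 genes, by limma. The ranges of the counts over all genes, with each array left out among the settings, are given at the end. For the bound against the unbound fraction of day 0 the count was 1 with arrays centred on their medians, 1 with every probe set its own row, 5 with array weights and 0 without the bright arrays. Of all genes, centring called 409 higher and 436 lower there, and 3.95% of all probe sets were called with each its own row. On day 5 the count was 0 with every probe set its own row (3 with an unadjusted p under 0.05), where 6.84% of all probe sets were called. It was 5 with array weights and 0 without the bright arrays. For the bound fraction at day 2 against day 0 the count was 0 with only the groups compared, where 246 of all 16864 genes were called, and 1 without the bright arrays. At day 5 against day 0 the count was 5 with a trended and robust prior, 5 with array weights and 0 without the bright arrays. With the settings as reported, 23.7% of all genes were called there, and the share with a trended and robust prior is not given here. For the unbound fraction the count was 1 with centred arrays, 1 with the mean of all probe sets, 5 with only the groups compared, 5 with array weights and 0 without the bright arrays. With the settings as reported, 10.4% of all genes were called there, and the share with only the groups compared is not given here. Array weights raised the counts over all 16864 genes too, to 4306 and 6038 for bound against unbound on day 0 and day 5. At day 5 against day 0 they gave 6157 in the bound fraction and 5280 in the unbound fraction. Leaving out 1 array at a time gave 1 to 3 and 0 to 1 for bound against unbound on day 0 and day 5, 2 to 3 and 2 to 4 for the bound fraction at day 2 and day 5 against day 0, 0 to 0 between those days, 1 to 2 for the unbound fraction, and 0 to 0 for the change in the bound to unbound difference.

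Apart from Gucy1a2, named here, turned signs came from differences that were not called. With the mean of all probe sets, the bound to unbound difference of day 0 was 0.14 for Ece1 and 0.0631 for Ednrb, the unbound day 5 minus day 0 difference was -0.0127 for Ednrb and -0.0600 for Npr3, and the change in the bound to unbound difference was 0.49 for Gucy1a1 and 0.14 for Gucy1b1. In that setting the called unbound difference of Gucy1a2, a pathway gene outside the 9, was -0.22. With centred arrays, the change was 0.19 for Ece1, 0.29 for Ednrb, 0.27 for Gucy1a1 and 0.27 for Gucy1b1. There, Ednrb differed by 0.18 in the bound fraction at day 5 against day 0, by 0.0714 between bound and unbound on day 5 and by -0.11 in the unbound fraction, where Npr3 differed by -0.0385. Ednrb differed by 0.0791 between bound and unbound on day 0 with array weights, and Npr3 by -0.0190 in the unbound fraction without the bright arrays. Leaving out 1 array at a time, Ece1 ranged from -0.17 to 0.40 in the bound fraction at day 2, -0.0355 to 0.68 at day 5, and -0.31 to 0.13 between bound and unbound on day 0. For Ednrb these ranges were -0.18 to 0.51, -0.62 to 0.0644 and -0.37 to 0.32, and for Nos3 they were -0.19 to 1.18, -0.0513 to 0.55 and -0.48 to 0.00966. Npr1 ranged from -0.27 to 0.76 between bound and unbound on day 5, Npr3 from -0.0240 to 0.31 in the unbound fraction, and the change for Gucy1b1 from -0.58 to 0.10. The cause of these changes was not tested.

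Centring arrays in place of quantile normalization moved the median difference of all genes on day 5 between bound and unbound to 0.41, from 0.03, and the higher and lower calls to 1592 and 752, from 1075 and 1305. For the bound fraction at day 5 against day 0 it moved the median to 0.34, from 0.12, and the calls to 2400 and 1087, from 2312 and 1684. For the unbound fraction the median moved to -0.22, from 0.01, and the calls to 639 and 733, from 1085 and 662. Counts over all genes ranged from 313 to 4306 for bound against unbound on day 0 (1502 as reported) and from 1 to 6038 on day 5 (2380), with the lowest without the bright arrays and the highest with array weights. They ranged from 246 to 2724 in the bound fraction at day 2 (1560), from 2117 to 6157 at day 5 (3996), from 0 to 1296 between those days (99), from 599 to 5280 in the unbound fraction (1747) and from 1 to 1936 for the change (3).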
